A study of Mus musculus with 11 samples.

Results

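GIF-DTR mucosa, from a mouse line made for the removal of chief cells, was compared with wild-type mucosa across all expressed genes of the gastric corpus, the acid- and enzyme-secreting body of the stomach. The samples were chosen by their genotype label and were 3 of GIF-DTR and 2 of control, 5 of the 11 samples in the series. The deposited table held 34866 genes, of which 730 Y-linked genes were left out and 14901 had enough counts to be tested. The series measured bulk RNA of corpus mucosa in 4 genotypes, which were WT control (2 samples), GIF-DTR (3), ATP4B-DTR (3) and the line with both, GIF/ATP4B-DTR (3), to describe the mucosa after chief cells, parietal cells or both are removed. DTR is the diphtheria toxin receptor, which makes mouse cells sensitive to diphtheria toxin. The genotype names tie it to Gif, the intrinsic factor gene that mouse chief cells use, and to Atp4b, a proton pump gene of parietal cells. The labels give WT as the whole genotype of the controls, name no allele that all groups share, and do not say whether the receptor sits on a transgene or which other cells carry it. Strain, age, sex, toxin dose, time after toxin and whether the controls received toxin are not given in the sources used here. Nothing says that the samples of a group came from separate animals, so p-values measure only the spread between these samples, which may be technical.

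Chief cells lie at the base of corpus glands and store zymogens such as pepsinogen in large granules, which they build with a dense endoplasmic reticulum and the transcription factor MIST1 (Bhlha15). Above them lie mucous neck cells, acid-secreting parietal cells, the dividing isthmus and the surface pit cells. After injury, corpus glands can show spasmolytic polypeptide-expressing metaplasia, in which gland base cells take on mucous neck features, and dividing cells can appear outside the isthmus.

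Depth was 27.9 and 20.9 M counts, where M stands for mega, in controls 1 and 2, and 21.2, 23.6 and 22.6 M in GIF-DTR 1 to 3. Levels are given as CPM, counts per mega-count after TMM scaling (trimmed mean of M-values). The 10 most abundant genes took 24.998% and 31.99% of the counts of controls 1 and 2 and 19.995%, 16.5% and 15.2% of those of the GIF-DTR samples. Y-linked Ddx3y measured 42.8 and 40.9 CPM in the controls and no more than 0.0794 CPM in GIF-DTR, so line and Y-linked expression cannot be told apart in this comparison. The controls also stood apart from all 9 samples of the lines in 9 pseudogenes, each with at least 30 counts in both controls and at most 3 in any other sample. For example, Gm28438 held 21442 and 12749 counts in the controls and 0 elsewhere. Among the 54 other pairs of samples the largest number of such genes was 3. The fold changes also followed transcript length: among genes in the shortest of 3 equal classes, 14.8% were called higher and 3.57% lower in GIF-DTR, against 4.99% and 11.3% in the longest class. The part of these library differences in the results below was not tested, except where a value with the length trend removed is given.

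GIF-DTR differed from control at 2485 of 14901 genes (16.7%), called by the quasi-likelihood test of edgeR where the adjusted p (Benjamini-Hochberg) was under 0.05. Of these, 1477 were higher (9.91% of the genes tested) and 1008 lower (6.76%), and 974 changed at least 2-fold. The median log2 fold change over all tested genes was −0.01. No called gene had overlapping samples; among all tested genes 47.9% had no overlap. The largest rises among genes that met the naming rule were of Cldn2, Kcne3 and Cftr, and the largest falls were of Try10, Chia1 and Olfr1260. The shares of all tested genes that rose (9.91%) and fell (6.76%) are the background for each list count given below.

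Each control alone gave a smaller set. Against control 1 only, 872 of 15449 genes passed (5.64%), and against control 2 only, 1139 of 15521 (7.34%). Among the 2485 genes called against both controls together, 497 also passed against each one alone, 300 of them higher and 197 lower. Fold changes against each control had the same sign for 2484 of the 2485, and the other 1 was not tested against control 2 alone. Comparing with 1 control is the same as leaving the other out, and the lone sample is then assumed to vary like the other groups. The plot of list medians against each control shows which gene groups depend on the choice of control. Of 132 named genes that were followed through these fits, 101 were called, and 44 of these passed in each of the 5 fits that left out 1 of the 5 samples; the most calls, 44, were lost without control 2.

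With an index of Y-linked expression as a covariate, 438 genes passed (325 higher and 113 lower), 404 of them among the 2485. That index varies within a genotype only in ATP4B-DTR, whose samples then set its size. Under it 0 members of the chief cell list, 0 of the parietal cell list and 37 of the 101 called genes named here passed. The median log2 fold change under it was −0.89 for the chief cell list (−1.73 without the covariate) and −0.81 for the parietal cell list (−0.71 without it).

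**Figure D1:**
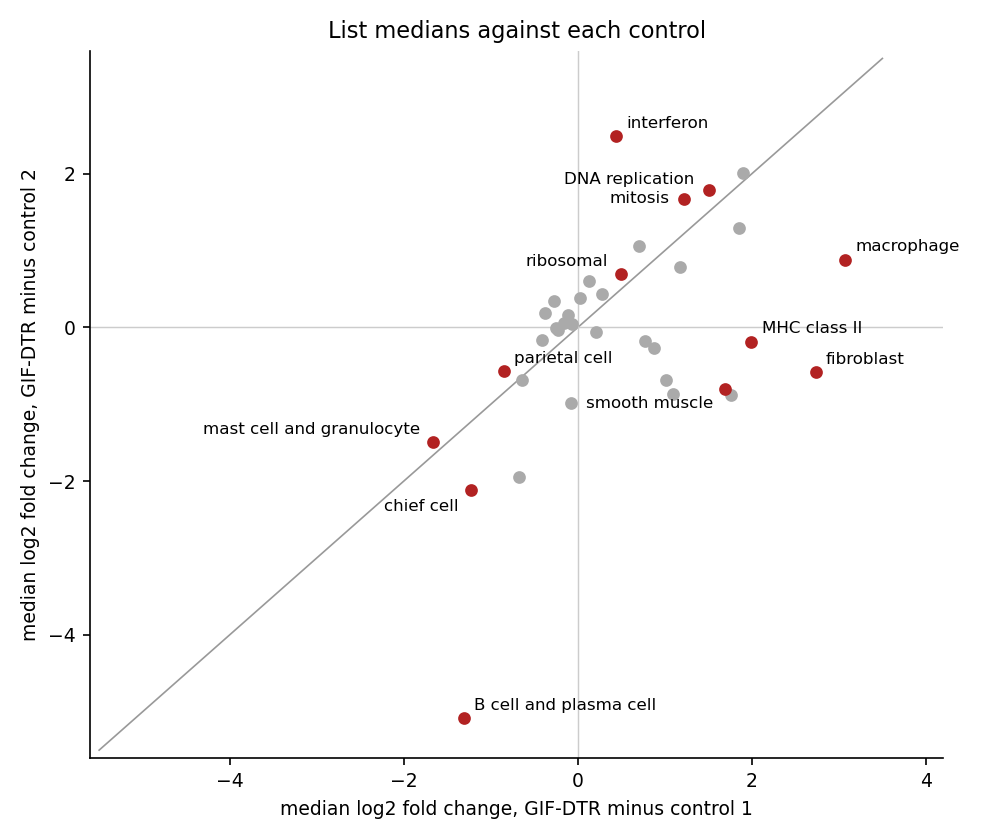
Median log2 fold change of the tested members of each gene list in GIF-DTR, against control 1 alone (x axis) and control 2 alone (y axis); each point is 1 list, red points are named, grey points are the other lists, and the line marks equal values. DNA replication (1.502 and 1.79) lies near the line and the chief cell list (−1.23 and −2.11) farther from it, whereas fibroblast (2.73 and −0.58), smooth muscle, macrophage and interferon lists lie far from it.

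The marker genes Gif, Pgc and Chia1 were lower in every GIF-DTR sample than in either control, and GIF-DTR 1 kept more Pgc and Chia1 but less Gif than GIF-DTR 2 and 3. Of 13 tested members of a list of chief cell products and regulators, 5 fell and 0 rose, where 6.76% of all genes fell, and the list's median log2 fold change was −1.73. The 3 markers were present at high levels in control and all fell in the line. Fewer chief cells and less RNA per chief cell cannot be told apart in bulk tissue.

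Gif (ENSMUSG00000024682.3, chr19:11747554-11763447 in mm10, intrinsic factor, current symbol Cblif) carries vitamin B12 to its uptake site and is the gene the line is named for. It stood at 703 and 2304 CPM in controls 1 and 2 and at 65.5, 178 and 196 CPM in GIF-DTR 1 to 3. Control 2 was above control 1, GIF-DTR 1 was the lowest of the line, and the groups did not overlap. The log2 fold change was −3.36 ± 0.72 (SE, edgeR adjusted p = 0.0168). Pgc (ENSMUSG00000023987.14, chr17:47726842-47734482) encodes pepsinogen C, a precursor of the stomach's acid protease. Its level was 70824 and 154909 CPM in the controls and 21643, 4620.1 and 5535 CPM in GIF-DTR, so GIF-DTR 1 stood apart from the other two samples of the line. Pgc fell by 3.41 ± 0.86 log2 units (edgeR adjusted p = 0.0246). Chia1 (ENSMUSG00000062778.12, chr3:106113229-106132120) encodes acidic mammalian chitinase. It fell from 14260.4 and 35136 CPM to 856, 299 and 318 CPM, a log2 fold change of −5.65 ± 0.83 (edgeR adjusted p = 0.00306).

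Within the same list, Tmed6, a cargo receptor of the secretory pathway, fell from 81.1 and 163 CPM to 16.7, 13.2 and 11.99 CPM, a log2 fold change of −3.13 ± 0.38 (edgeR adjusted p = 0.00155). The 3 samples of the line were close to each other in this gene. Copz2, a coat protein subunit of vesicle traffic, fell by 1.73 ± 0.52 log2 units (edgeR adjusted p = 0.0421). Bhlha15, which encodes MIST1, was at 10.7 and 31.7 CPM in control and 0.757, 8.22 and 1.83 CPM in GIF-DTR. All 3 samples were below the controls, but they spread widely and the difference of −2.54 ± 1.02 log2 units did not pass (edgeR adjusted p = 0.126). The pepsinogen gene Pga5 had 112 and 121 CPM in control and 53.3, 3.89 and 5.36 CPM in GIF-DTR, where GIF-DTR 1 again was the highest, and its difference of −2.49 ± 1.12 did not pass either (edgeR adjusted p = 0.169 by the same test). Chia1 and Tmed6 passed in each of the 5 fits that left 1 sample out. Gif did not pass without control 2 (edgeR adjusted p = 0.105). Pgc did not pass without control 2, GIF-DTR 2 or GIF-DTR 3 (up to 0.127), and Copz2 passed only where GIF-DTR 1 was left out.

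**Figure D2:**
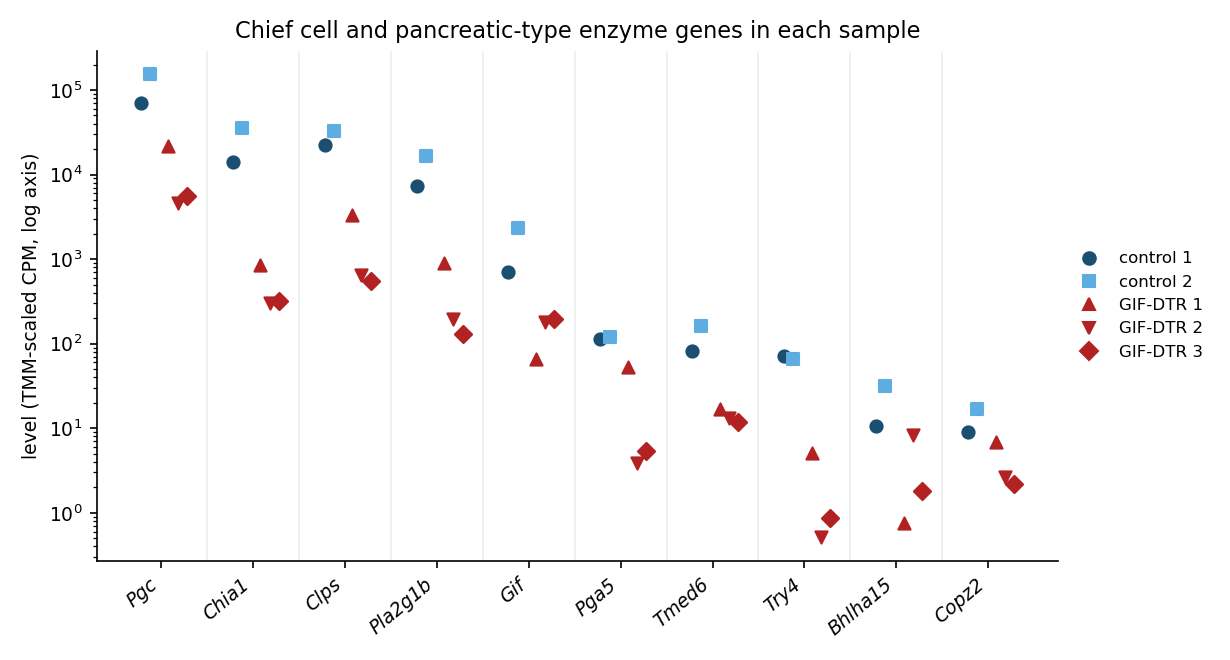
TMM-scaled CPM (log axis) of chief cell and pancreatic-type enzyme genes in each control and each GIF-DTR sample; each point is 1 sample. All GIF-DTR points lie below both control points of the same gene, and GIF-DTR 1 lies above GIF-DTR 2 and 3 for Pgc (21643 against 4620 and 5535 CPM) but below them for Gif.

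The 250 bases before the start sites of the 3 marker genes are shown because these genes fell together; they come from RefSeq (GRCm38.p6, the assembly also called mm10). All lie on the + strand, at chr19:11747309-11747558, chr17:47726592-47726841 and chr3:106113132-106113381. The capitals mark an E-box, the CANNTG letters that basic helix-loop-helix factors such as MIST1 bind, in Gif, and the TATA box letters TATAAA in Pgc and Chia1. The Chia1 sequence also holds 3 E-boxes, not in capitals, and the Pgc sequence 0. RefSeq start sites are used here, and 153 of the Chia1 bases and 5 of the Gif bases lie inside the gene as GENCODE M21 places it.
Gif: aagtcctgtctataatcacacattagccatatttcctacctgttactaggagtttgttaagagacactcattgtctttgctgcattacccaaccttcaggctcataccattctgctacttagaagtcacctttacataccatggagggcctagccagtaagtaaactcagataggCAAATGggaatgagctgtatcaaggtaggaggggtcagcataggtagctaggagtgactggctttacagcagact
Pgc: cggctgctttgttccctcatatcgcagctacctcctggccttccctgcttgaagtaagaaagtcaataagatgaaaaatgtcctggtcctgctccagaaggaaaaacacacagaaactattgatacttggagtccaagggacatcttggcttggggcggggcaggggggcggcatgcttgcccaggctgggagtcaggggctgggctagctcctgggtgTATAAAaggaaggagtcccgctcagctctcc
Chia1: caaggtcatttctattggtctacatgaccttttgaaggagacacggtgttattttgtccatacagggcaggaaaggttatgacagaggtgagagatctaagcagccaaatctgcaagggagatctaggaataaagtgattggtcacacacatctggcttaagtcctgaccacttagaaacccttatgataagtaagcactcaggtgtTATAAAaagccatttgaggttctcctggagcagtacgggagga
The E-box starts 75 bases before the Gif start site, and the TATA box 31 and 43 bases before those of Pgc and Chia1. On either strand, TATAAA occurs in 12.37% of 32851 promoters of this length and in 2 of the 8 promoters matched for the chief cell list. CANNTG occurs in 66.22% of all promoters and in 6 of those 8. The letters of CANNTG and TATAAA cannot overlap. These matches describe letters and say nothing of binding.

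Some pancreatic-type digestive enzyme genes, which these corpus samples also expressed, fell, but most of the list for them did not pass. Clps, the colipase that anchors lipase to fat droplets, stood at 22204 and 33079 CPM in control and 3341, 645 and 558 CPM in GIF-DTR, a log2 fold change of −4.19 ± 0.99 (edgeR adjusted p = 0.0218). Pla2g1b, a secreted phospholipase, fell from 7264 and 16709 CPM to 897, 194 and 131 CPM, a log2 fold change of −4.88 ± 1.16 (edgeR adjusted p = 0.0242 by the same test). In both genes GIF-DTR 1 was several times above GIF-DTR 2 and 3 and still below both controls. The trypsin gene Try4 fell from 70.6 and 64.98 CPM to 5.11, 0.511 and 0.873 CPM, a log2 fold change of −5.00 ± 0.83 (edgeR adjusted p = 0.00664). Try10 had 496 and 501 counts in controls 1 and 2 and 9, 0 and 0 in the GIF-DTR samples, a pooled ratio of 197 (95% exact interval 103 to 433, counting error only) and an edgeR adjusted p of 0.00449. Try4 had fractional counts in 9 and Try10 in 4 of 11 samples, which leaves their split from related trypsin genes uncertain.

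The pancreatic acinar list held 10 tested genes, of which Try4 and Clps, 2 in all, fell and 0 rose (6.76% of all genes fell), with a median of −1.34. The other 8 did not pass: the elastase gene Cela1 was at 25.4 and 21.2 CPM in control and 44.5, 40.1 and 40.9 CPM in GIF-DTR, and Ptf1a, the acinar transcription factor, was below 3 CPM in all 5 samples. Cela1 passed as higher with the DESeq2 Wald test (adjusted p = 0.0407) and with only the 2 groups compared (edgeR adjusted p = 0.0123). With the Y-linked covariate its log2 fold change was −0.18 and 0 of the 10 genes passed. Of 15 listed acinar genes, 5 had too few counts to test, among them Cpa1 and Prss2. Clps passed only without GIF-DTR 1, and Pla2g1b did not pass without control 2, GIF-DTR 2 or GIF-DTR 3 (edgeR adjusted p up to 0.0966).

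Genes of the endoplasmic reticulum that fold and export secretory proteins gave a few calls in each direction. Of 25 tested, 4 fell and 3 rose (6.76% and 9.91% of all genes), and the median was −0.01, the same as over all genes. Herpud1, which takes part in the disposal of misfolded proteins, fell from 344 and 386 CPM to 128, 113 and 94.3 CPM, a log2 fold change of −1.71 ± 0.19 (edgeR adjusted p = 0.00105). Ero1lb, an oxidase that drives disulfide formation in secretory cells, fell by 2.01 ± 0.23 (edgeR adjusted p = 0.00105; fractional counts in 9 samples), and Edem1, a degradation factor, fell by 0.73 ± 0.15 (edgeR adjusted p = 0.00787). Sec61b, a subunit of the translocation channel, rose from 51.9 and 49.6 CPM to 87.3, 79.6 and 87.4 CPM, by 0.74 ± 0.13 log2 units (edgeR adjusted p = 0.00441), and Ssr2, of the translocon-associated complex, by 0.54 ± 0.14 (edgeR adjusted p = 0.0222). The chaperone gene Hspa5 differed by −0.06 ± 0.32 and the stress regulator Xbp1 by −0.36 ± 0.13, and neither passed (edgeR adjusted p of 0.923 and 0.0758). With the length and GC trend removed 1 of the 25 genes rose and 4 fell, and with the Y-linked covariate 0 rose and 2 fell. Herpud1, Ero1lb and Sec61b passed with any 1 sample left out. Edem1 did not pass without control 1, nor Ssr2 without control 2 or GIF-DTR 3.

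Some parietal cell genes fell in GIF-DTR as well. Of 23 tested members of the acid secretion list, 10 fell, 0 rose and 13 did not pass (6.76% of all genes fell), with a median of −0.71. Atp4a, the catalytic subunit of the proton pump, fell from 11692 and 11130.4 CPM to 5556, 4789 and 5339 CPM, a log2 fold change of −1.13 ± 0.32 (edgeR adjusted p = 0.0337). Atp4b, the other pump subunit, stood at 4787 and 4365 CPM in control and 3471, 2136 and 2785 CPM in GIF-DTR. All 3 samples of the line were below the controls, but the difference of −0.71 ± 0.37 did not pass (edgeR adjusted p = 0.224).

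The basolateral anion exchanger Slc4a2 fell from 836 and 702 CPM to 392, 389 and 469 CPM, a log2 fold change of −0.89 ± 0.18 (edgeR adjusted p = 0.00875; fractional counts in 11 samples). Kcnj15, a potassium channel of parietal cells, fell from 776 and 599 CPM to 321, 363 and 368 CPM, a log2 fold change of −0.97 ± 0.20 (edgeR adjusted p = 0.00899). The nuclear receptor Esrrg, a regulator of oxidative genes, fell by 0.93 ± 0.21 (edgeR adjusted p = 0.0129), and Ezr, the ezrin of apical membranes, fell by 0.65 ± 0.18 (edgeR adjusted p = 0.0283). Sstr2, the receptor through which somatostatin restrains acid secretion, fell from 26.7 and 21.5 CPM to 10.6, 9.17 and 9.05 CPM, a log2 fold change of −1.33 ± 0.19 (edgeR adjusted p = 0.00224). Slc26a7, an anion transporter, fell from 78.3 and 71.4 CPM to 31.4, 22.9 and 17.9 CPM, a log2 fold change of −1.64 ± 0.44 (edgeR adjusted p = 0.0311). Only Sstr2 among those named passed with any 1 sample left out, and without control 1 only 1 member of the list passed. The call on Atp4a was lost whichever of the 5 samples was left out (edgeR adjusted p up to 0.112).

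Some mucous neck cell genes changed, in both directions. Of 12 tested, 3 rose and 2 fell (9.91% and 6.76% of all genes), and the median was 0.36. Muc6, the gland mucin of neck cells, fell from 384 and 333 CPM to 39.4, 19.7 and 27.1 CPM, a log2 fold change of −3.64 ± 0.53 (edgeR adjusted p = 0.00349). Creb3l1, a transcription factor of secretory cells, fell by 1.04 ± 0.25 (edgeR adjusted p = 0.0180). Cftr, the chloride channel mutated in cystic fibrosis, rose from 0.359 and 0.277 CPM to 9.18, 14.1 and 20.8 CPM, by 5.49 ± 0.51 log2 units (edgeR adjusted p = 0.000467). Aqp5, a water channel, rose from 3.10 and 2.05 CPM to 24.6, 18.6 and 14.9 CPM, by 2.90 ± 0.35 (edgeR adjusted p = 0.00118), and Glipr1 rose by 1.90 ± 0.47 (edgeR adjusted p = 0.0210; fractional counts in 10 samples). Each GIF-DTR sample had over 4 times the Aqp5 level of either control. Tff2, the spasmolytic polypeptide itself, stood at 1138 and 723 CPM in control and 1724, 1246 and 860.5 CPM in GIF-DTR, a difference of 0.46 ± 0.38 that did not pass (edgeR adjusted p = 0.455). Muc6, Cftr and Aqp5 passed with any 1 sample left out and with a covariate for Y-linked expression (edgeR adjusted p of 0.0146, 0.00962 and 0.0232). Creb3l1 passed only without GIF-DTR 1, and Glipr1 did not pass without control 1 or GIF-DTR 3.

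Among 16 tested genes listed for spasmolytic polypeptide-expressing metaplasia, 6 rose and 1 fell, against 9.91% and 6.76% of all genes, with a median of 1.04. Dmbt1, a secreted mucosal scavenger protein, rose from 49.99 and 37.98 CPM to 349, 326 and 251 CPM, by 2.81 ± 0.40 log2 units (edgeR adjusted p = 0.00233). Cd44, a hyaluronan receptor used as a mark of metaplastic glands, rose from 6.69 and 12.5 CPM to 21.2, 21.8 and 26.2 CPM, by 1.27 ± 0.35 (edgeR adjusted p = 0.0311). The antiprotease-like gene Wfdc2 rose by 1.92 ± 0.55 (edgeR adjusted p = 0.0418), the glutathione peroxidase Gpx2 by 1.28 ± 0.34 (edgeR adjusted p = 0.0291), the secreted glycoprotein Olfm4 by 1.85 ± 0.52 (edgeR adjusted p = 0.0400) and the endotoxin coreceptor Cd14 by 1.38 ± 0.35 (edgeR adjusted p = 0.0215). Slc7a11, the cystine transporter that partners with CD44, fell from 35.3 and 21.1 CPM to 7.85, 14.9 and 7.30 CPM, a log2 fold change of −1.49 ± 0.38 (edgeR adjusted p = 0.0258; fractional counts in 10 samples). The groups did not overlap in any of these. Dmbt1 passed with any 1 sample left out. Each of the other 6 lost its call without at least 3 of the 5 samples in turn, and without control 1 or without GIF-DTR 3 only 1 of the 16, Dmbt1, passed.

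Among 14 tested genes of tight junctions, 2 claudins rose and 0 genes fell (9.91% and 6.76% of all genes), with a median of −0.02. Cldn2, a pore-forming claudin of leaky epithelia, had 3 and 2 counts in the controls (0.135 and 0.111 CPM) and 10.6, 13.5 and 17.6 CPM in GIF-DTR, a pooled ratio of 113 (95% exact interval 48.4 to 349.5, counting error only) and an edgeR adjusted p of 0.00109. Kcne3, a potassium channel subunit outside the list, rose alongside it from 0.135 and 0.610 CPM to 17.9, 25.9 and 30.9 CPM, by 6.12 ± 0.71 log2 units (edgeR adjusted p = 0.00155). Cldn4 rose from 0.269 and 0.277 CPM to 12.6, 5.35 and 3.73 CPM, by 4.69 ± 0.92 (edgeR adjusted p = 0.00865), with GIF-DTR 1 the highest. Cldn18, the claudin of gastric epithelium, stood at 1834 and 1358 CPM in control and 1243, 1263 and 1071 CPM in GIF-DTR and did not pass (edgeR adjusted p = 0.156). Cldn2 and Kcne3 passed with any 1 sample left out, and Cldn4 did not pass against either control alone (up to 0.0703).

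Of 12 tested pit cell genes, 0 passed. Muc5ac, the surface mucin, was at 13839 and 7819 CPM in control and 3876, 6779.8 and 4654 CPM in GIF-DTR (edgeR adjusted p = 0.143), and the gastrokine Gkn1 was at 42271 and 27364 CPM and 28065, 28373 and 21820.1 CPM (edgeR adjusted p = 0.460). In both genes control 1 was above control 2 and above all 3 samples of the line. The list's median was −0.38 against control 1 and 0.18 against control 2.

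Among 13 tested ligands and receptors of the epidermal growth factor system, Egf was the only call. This ligand fell from 131 and 55.3 CPM to 5.06, 3.11 and 4.01 CPM, a log2 fold change of −4.53 ± 0.59 (edgeR adjusted p = 0.00224). Control 1 held over 2 times the level of control 2, and all 3 samples of the line were at least 10 times below the lower control. Tgfa, a ligand of the same receptor, was at 78.2 and 46.9 CPM and 45.6, 53.5 and 37.6 CPM and did not pass (edgeR adjusted p = 0.263). Egf passed with any 1 sample left out but not with the Y-linked covariate (a log2 fold change of −4.01, edgeR adjusted p = 0.118).

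**Figure D3:**
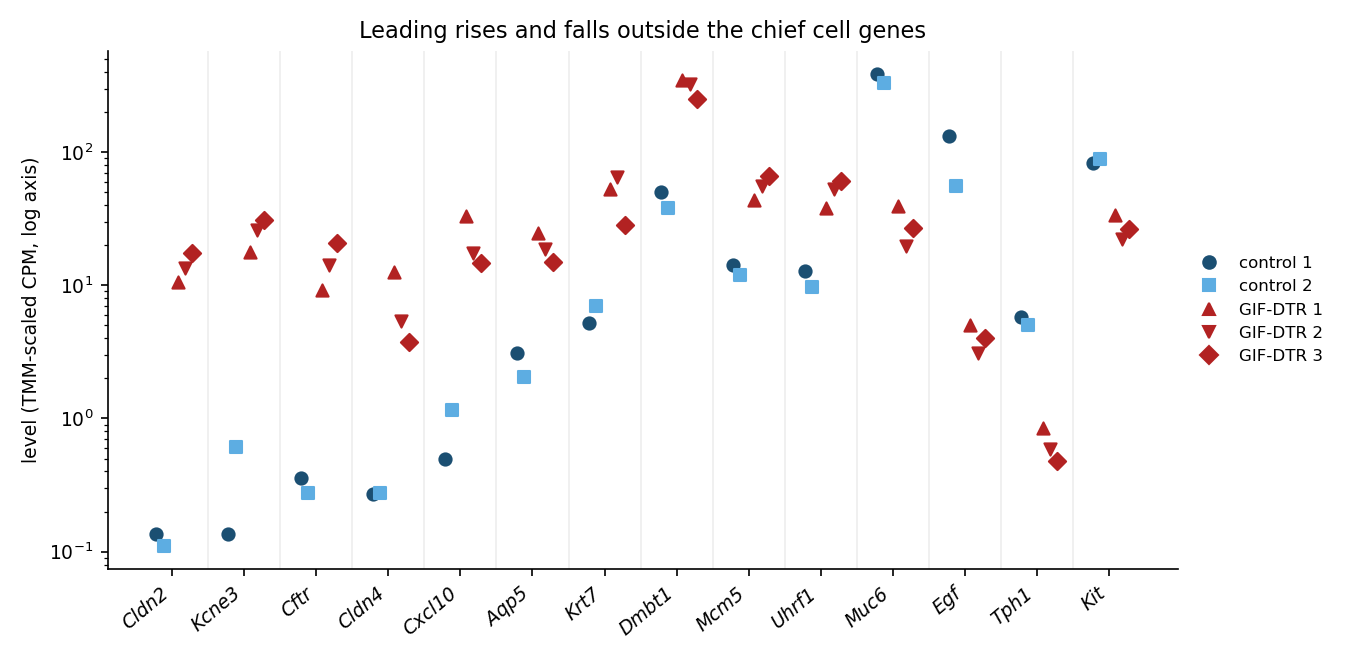
TMM-scaled CPM (log axis) of leading raised and lowered genes outside the chief cell list in each control and GIF-DTR sample; each point is 1 sample. Cldn2, Kcne3 and Cftr lie below 1 CPM in both controls and at 9.18 CPM or more in every GIF-DTR sample, and Egf, Tph1 and Kit are lower in all 3.

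Several genes of isthmus stem and progenitor cells rose. Of 15 tested, 5 rose and 0 fell (9.91% of all genes rose), with a median of 1.03. Stmn1, a microtubule regulator of dividing progenitors, rose from 40.3 and 35.04 CPM to 134, 95.99 and 113 CPM, by 1.60 ± 0.23 log2 units (edgeR adjusted p = 0.00191). Ascl2, a stem cell transcription factor of the intestine, rose from 0.180 and 0.388 CPM to 2.13, 4.17 and 4.60 CPM, by 3.68 ± 0.74 (edgeR adjusted p = 0.00845). The scaffold gene Iqgap3 rose by 1.31 ± 0.27 (edgeR adjusted p = 0.0103), the RNA-binding factor Mex3a by 1.38 ± 0.37 (edgeR adjusted p = 0.0278) and the transcription factor Sox2 by 1.03 ± 0.32 (edgeR adjusted p = 0.0493). Stmn1 passed with any 1 sample left out. Ascl2 did not pass without control 1, Iqgap3 without control 2, Mex3a without 4 of the 5 samples in turn and Sox2 without any of the 5.

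Nearly every gene of DNA replication and of mitosis on the lists rose. Of 35 tested replication genes, 34 rose and 0 fell, and of 34 mitosis genes 31 rose and 0 fell, where 9.91% of all genes rose. The median log2 fold changes were 1.63 and 1.44. The same lists had medians of 1.502 and 1.22 against control 1 and 1.79 and 1.67 against control 2. All 35 replication genes had a positive fold change, and 34 of them had no overlap between groups, where 25% of all genes were higher without overlap.

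The minichromosome maintenance genes, whose products form the replicative helicase, rose together. Mcm5 went from 14.2 and 11.9 CPM to 43.9, 56.1 and 66.7 CPM, by 2.09 ± 0.24 log2 units (edgeR adjusted p = 0.00105). Mcm3 rose by 1.78 ± 0.22 (edgeR adjusted p = 0.00122), Mcm4 by 1.41 ± 0.17 (edgeR adjusted p = 0.00113) and Mcm2 by 1.09 ± 0.22 (edgeR adjusted p = 0.00916). In Mcm5 GIF-DTR 1 was the lowest sample of the line and still above both controls. Uhrf1, which brings maintenance methylation to new DNA, rose from 12.8 and 9.76 CPM to 38.3, 53.3 and 60.4 CPM, by 2.16 ± 0.25 (edgeR adjusted p = 0.00105). Chaf1a, a histone chaperone at the fork, rose by 2.10 ± 0.23 (edgeR adjusted p = 0.000902) and Gins2, of the helicase complex, by 1.99 ± 0.22 (edgeR adjusted p = 0.00105); their counts were fractional in 10 and 11 samples.

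Among the mitosis genes, Bub1, a spindle checkpoint kinase, rose from 7.01 and 4.10 CPM to 17.2, 20.6 and 25.2 CPM, by 1.91 ± 0.27 log2 units (edgeR adjusted p = 0.00175). Mad2l1, of the same checkpoint, rose by 1.97 ± 0.28 (edgeR adjusted p = 0.00213), the kinetochore gene Spc24 by 1.84 ± 0.22 (edgeR adjusted p = 0.00114), Birc5 (survivin) by 1.65 ± 0.24 (edgeR adjusted p = 0.00224) and the cyclin gene Ccna2 by 1.60 ± 0.24 (edgeR adjusted p = 0.00224). Mki67, the antigen used to count dividing cells, rose from 99.7 and 63.9 CPM to 136, 174 and 213 CPM, by 1.09 ± 0.25 (edgeR adjusted p = 0.0141), and the topoisomerase gene Top2a from 62.7 and 43.6 CPM to 111, 151 and 179 CPM, by 1.47 ± 0.25 (edgeR adjusted p = 0.00394). GIF-DTR 3 was the highest of the 5 samples in both. With the length and GC trend removed, 34 replication and 30 mitosis genes rose, and among members with no fractional counts 17 of 17 and 15 of 15 rose. Without control 2, 25 replication and 17 mitosis genes rose, and Mcm2 and Mki67 did not pass (edgeR adjusted p of 0.0718 and 0.108). With the Y-linked covariate 25 and 24 rose.

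Promoters of Mcm5 and Uhrf1 are shown because both genes rose and E2F factors are known to bind such promoters in S phase genes. They are the 250 bases before the start site in RefSeq (GRCm38.p6), + strand, at chr8:75109259-75109508 and, for the second Uhrf1 start site, chr17:56304063-56304312, which lies inside the gene as GENCODE M21 places it. Capitals mark matches to the E2F letters TTTCGCGC or TTTGGCGC on either strand.
Mcm5: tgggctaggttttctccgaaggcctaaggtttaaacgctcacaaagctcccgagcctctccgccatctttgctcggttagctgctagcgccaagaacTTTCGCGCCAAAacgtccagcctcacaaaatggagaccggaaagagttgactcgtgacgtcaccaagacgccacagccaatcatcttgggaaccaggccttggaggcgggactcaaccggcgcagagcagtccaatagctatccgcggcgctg
Uhrf1: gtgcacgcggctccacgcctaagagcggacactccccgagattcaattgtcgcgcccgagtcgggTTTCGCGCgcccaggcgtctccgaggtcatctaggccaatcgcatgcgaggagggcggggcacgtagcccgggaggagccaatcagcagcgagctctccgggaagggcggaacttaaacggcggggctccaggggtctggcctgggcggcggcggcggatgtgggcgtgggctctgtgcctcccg
In Mcm5 the capitals hold 2 overlapping matches, 1 on each strand, which start 153 and 149 bases before the start site. In Uhrf1 the match starts 185 bases before it, and the first Uhrf1 promoter has no match. These letters occur in 0.6545% of all 32851 promoters, in 5 of 34 promoters (14.71%) of the replication list, in 1 of 28 (3.571%) of the mitosis list and in 0 of 8 of the chief cell list. Promoters were matched for 29 replication and 27 mitosis genes.

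**Figure D4:**
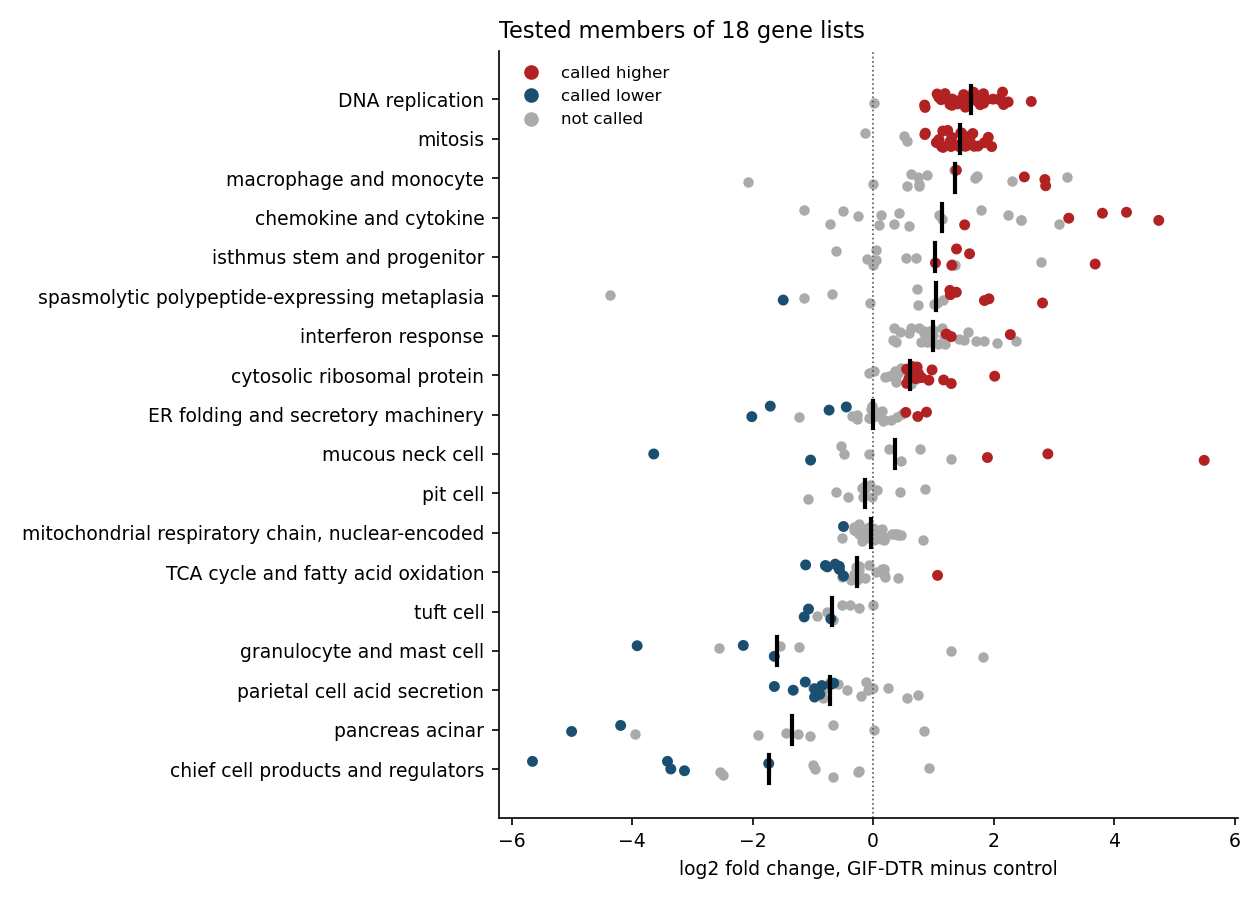
Log2 fold change of GIF-DTR minus control for every tested member of 18 gene lists; each point is a gene, red and blue points passed the test and the black bar is the list's median. All DNA replication points and all mitosis points but 1 (Pttg1, −0.13) lie to the right of 0, with medians of 1.63 and 1.44, and the chief cell points mostly to the left with a median of −1.73.

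Some genes of fat oxidation and the tricarboxylic acid (TCA) cycle fell. Of 27 tested, 8 fell, 1 rose and 18 did not pass (6.76% of all genes fell), with a median of −0.28. With the Y-linked covariate 1 fell and 0 rose, with a median of −0.30. Cpt1a, which admits long-chain fatty acids to mitochondria, fell from 345 and 275 CPM to 126, 162 and 140.3 CPM, a log2 fold change of −1.12 ± 0.18 (edgeR adjusted p = 0.00344). Idh2, a mitochondrial isocitrate dehydrogenase, fell from 288 and 282 CPM to 184, 153 and 167 CPM, a log2 fold change of −0.76 ± 0.15 (edgeR adjusted p = 0.00817). The acyl-CoA dehydrogenases Acadm and Acadl had log2 fold changes of −0.79 ± 0.17 (edgeR adjusted p = 0.0104) and −0.56 ± 0.14 (edgeR adjusted p = 0.0211). Ppargc1a, a coactivator of mitochondrial genes, rose by 1.07 ± 0.31 (edgeR adjusted p = 0.0410). Of 36 nuclear genes of the respiratory chain, 0 rose and 1 fell, the succinate dehydrogenase subunit Sdha, with a log2 fold change of −0.50 ± 0.13 (edgeR adjusted p = 0.0261). Cpt1a and Idh2 passed with any 1 sample left out, and without control 1 only 2 genes of the first list passed. Ppargc1a and Sdha passed only without GIF-DTR 1.

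Of 15 tested endocrine cell genes, 1 fell and 0 rose. Their median log2 fold change was 0.88 against control 1, with 13 of 15 positive, and −0.27 against control 2, with 6 of 15 positive. Tph1, the enzyme that starts serotonin synthesis outside neurons, fell from 5.75 and 5.05 CPM to 0.852, 0.590 and 0.476 CPM, a log2 fold change of −3.07 ± 0.59 (edgeR adjusted p = 0.00664), and it passed with any 1 sample left out. Mast cells express Tph1 as well as enterochromaffin cells. Among tuft cell genes, 3 of 10 fell and 0 rose (6.76% of all genes fell), with a median of −0.68. With the Y-linked covariate 0 tuft cell genes and 0 endocrine cell genes passed, with medians of −0.76 and 0.77. Dclk1, a kinase that marks tuft cells, fell from 23.2 and 26.1 CPM to 11.1, 12.7 and 9.56 CPM, a log2 fold change of −1.14 ± 0.18 (edgeR adjusted p = 0.00305), the adaptor gene Sh2d7 fell by 1.07 ± 0.26 (edgeR adjusted p = 0.0188) and the taste channel gene Trpm5 fell by 0.70 ± 0.19 (edgeR adjusted p = 0.0288). Pou2f3, the factor that specifies tuft cells, was at 1.66 and 1.72 CPM in control and 1.61, 1.69 and 1.79 CPM in GIF-DTR. Dclk1 passed with any 1 sample left out, Sh2d7 not without either control or GIF-DTR 3, and Trpm5 only without GIF-DTR 2.

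In the granulocyte and mast cell list, 3 of 8 tested genes fell and 0 rose (6.76% of all genes fell), with a median of −1.59 and a positive value in 2. With the Y-linked covariate 0 passed, with a median of −1.14. Kit, the receptor for stem cell factor, fell from 82.1 and 89.2 CPM to 33.5, 22.4 and 26.5 CPM, a log2 fold change of −1.64 ± 0.23 (edgeR adjusted p = 0.00172). Fcer1a, the chain of the IgE receptor, fell from 3.86 and 2.66 CPM to 0.284, 0.157 and 0.198 CPM, a log2 fold change of −3.92 ± 0.86 (edgeR adjusted p = 0.0125). Cpa3, a mast cell protease, fell by 2.16 ± 0.61 (edgeR adjusted p = 0.0382). The proteases Mcpt1 (64.1 and 42.03 CPM in control, 16.9, 3.27 and 7.10 CPM in GIF-DTR) and Mcpt2 (44.5 and 32.5 and 21.95, 7.36 and 10.5) did not pass (edgeR adjusted p of 0.135 and 0.168). The neutrophil genes S100a8, S100a9 and Ly6g had too few counts to test. Kit passed with any 1 sample left out, Fcer1a not without control 1 or GIF-DTR 3, and Cpa3 only without GIF-DTR 1.

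Some macrophage and monocyte genes rose, and how many depended on the control. Of 18 tested, 4 rose and 0 fell (9.91% of all genes rose), with a median of 1.36. Trem2, a lipid-sensing receptor of macrophages, rose from 0.314 and 0.610 CPM to 1.47, 3.11 and 3.29 CPM, by 2.51 ± 0.62 log2 units (edgeR adjusted p = 0.0201). Aif1, which encodes the IBA1 antigen, rose from 0.314 and 0.832 CPM to 3.74, 3.97 and 4.60 CPM, by 2.85 ± 0.72 (edgeR adjusted p = 0.0222), and the chemokine receptor gene Ccr2, of recruited monocytes, from 0.0449 and 1.22 CPM to 2.93, 4.05 and 6.51 CPM, by 2.86 ± 0.86 (edgeR adjusted p = 0.0440). Cd14, named above, was the fourth. Adgre1, which encodes the F4/80 antigen, had 0.494 and 4.16 CPM in the controls and 3.83, 3.74 and 5.32 CPM in GIF-DTR. Csf1r, the growth factor receptor of macrophages, stood at 0.988 and 11.03 CPM and 9.04, 9.05 and 12.4 CPM. For both, control 1 was far below every sample of the line while control 2 was within their range, and Csf1r passed against control 1 alone (edgeR adjusted p = 0.0183). The list's median was 3.07 against control 1, with 8 calls, and 0.88 against control 2, with 0 calls (by edgeR, where 5.64% and 7.34% of all genes passed), and without GIF-DTR 3 there were 0 calls as well.

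Of 21 tested chemokine and cytokine genes, 5 rose and 0 fell (9.91% of all genes rose), with a median of 1.15, and 2 passed without either control in turn. Cxcl10, an interferon-induced chemokine for T cells, rose from 0.494 and 1.16 CPM to 33.2, 17.4 and 14.6 CPM, by 4.74 ± 0.89 log2 units (edgeR adjusted p = 0.00993). The membrane-bound chemokine gene Cxcl16 rose from 36.6 and 28.4 CPM to 93.9, 109 and 76.5 CPM, by 1.52 ± 0.24 (edgeR adjusted p = 0.00289; fractional counts in 10 samples), and the neutrophil chemokine Cxcl1 from 0.180 and 0.166 CPM to 2.51, 3.82 and 1.15 CPM, by 3.80 ± 0.85 (edgeR adjusted p = 0.0134). Tnf had 1 count in each control and 7, 52 and 16 in GIF-DTR, a pooled ratio of 21.1 (95% exact interval 5.63 to 177, counting error only) and an edgeR adjusted p of 0.0218. The chemokine gene Ccl20 was at 0.180 and 0 CPM and 0.568, 1.69 and 0.595 CPM and also rose (edgeR adjusted p = 0.0452). GIF-DTR 2 was the highest in Tnf, Cxcl1 and Ccl20, and GIF-DTR 1 in Cxcl10. Cxcl16 alone passed with any 1 sample left out, and Cxcl10 and Cxcl1 did not pass against either control alone (edgeR adjusted p up to 0.0669 and 0.0817).

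All 33 tested interferon response genes had a positive fold change against both controls together, with a median of 1.00. With the covariate for Y-linked expression 23 of the 33 were positive, with a median of 0.25 and 1 call. The 3 that passed are a share of the list near that of all genes that rose (9.91%). Ifi27l2a rose from 4.22 and 3.22 CPM to 15.9, 20.4 and 17.9 CPM, by 2.28 ± 0.32 log2 units (edgeR adjusted p = 0.00173). The transcription factor Irf1 rose by 1.21 ± 0.34 (edgeR adjusted p = 0.0364) and the immunoproteasome subunit Psmb9 by 1.30 ± 0.40 (edgeR adjusted p = 0.0494). Isg15, a ubiquitin-like protein induced by interferon, was at 54.3 and 3.94 CPM in the controls and 90.3, 87.8 and 71.7 CPM in GIF-DTR. Stat2, a signal carrier of the interferon response, was at 75.8 and 29.00 CPM and 58.3, 87.6 and 68.02 CPM. In both genes control 1 lay closer to the line than to control 2, and neither passed (edgeR adjusted p of 0.324 and 0.554). Against control 1 the median was 0.44 with 29 of the 33 positive, and against control 2 it was 2.49 with 32 positive. Irf1 did not pass without control 2 or GIF-DTR 2 and Psmb9 passed only without control 1 (edgeR adjusted p up to 0.190 and 0.174), and Ifi27l2a passed with any 1 sample left out.

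Stromal genes gave no calls against both controls together and differed between the controls. The 16 fibroblast and collagen genes had a median log2 fold change of 2.73 against control 1 and −0.58 against control 2. Col1a1, the main chain of type I collagen, was at 7.01 and 82.9 CPM in the controls and 145, 38.3 and 56.8 CPM in GIF-DTR. The 10 smooth muscle genes summed to 392 and 2284 CPM in the controls and 2667, 724 and 463 CPM in GIF-DTR, so control 2 and GIF-DTR 1 were high and the other 3 samples low. Acta2, the smooth muscle actin, followed that division at 64.5 and 407 CPM and 488, 128 and 84.4 CPM. Of 14 endothelial, 10 nerve and glia, 9 MHC class II and 21 stromal WNT, R-spondin and BMP genes, 0 passed against both controls together. The plasma cell gene Igha was at 16.6 and 278 CPM in the controls and 14.9, 0.629 and 1.71 CPM in GIF-DTR (edgeR adjusted p = 0.104). Control 2, the sample with most Igha, was also the sample with most Gif, Pgc and Chia1.

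Of 10 forestomach genes 3 could be tested, each under 2 CPM in all 5 samples, and 0 passed. Of 13 intestine and antrum genes 10 could be tested and 2 rose (9.91% of all genes rose), and 0 passed with the Y-linked covariate. The tested genes of that list summed to 2953 and 2279 CPM in the controls and 3288, 1813 and 2050.3 CPM in the GIF-DTR samples, most of it from Apoa1 (1788 and 1473 and 1901, 793 and 993 CPM) and the galectin gene Lgals2 (983 and 662 and 1224, 809 and 917 CPM). Pdx1, a transcription factor of antrum and duodenum, rose from 0.314 and 0.0554 CPM to 3.41, 8.10 and 1.47 CPM, by 4.45 ± 1.30 log2 units (edgeR adjusted p = 0.0433), with GIF-DTR 2 the highest. Fabp2, an intestinal fatty acid carrier, rose from 14.5 and 6.88 CPM to 26.5, 32.2 and 21.5 CPM, by 1.32 ± 0.40 (edgeR adjusted p = 0.0494). The intestinal factors Cdx1 and Cdx2 had too few counts to test. Pdx1 passed only without GIF-DTR 3 and Fabp2 only without control 1. Among identity factors, Foxa1 rose by 0.54 ± 0.15 (edgeR adjusted p = 0.0270), the 1 call of 17 tested, and it passed only without GIF-DTR 1. Atf3, a stress-induced factor, rose from 34.4 and 23.4 CPM to 81.8, 86.5 and 60.4 CPM, by 1.40 ± 0.31 (edgeR adjusted p = 0.0136), the 1 call among 14 immediate early and heat shock genes, and did not pass without control 2.

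Several of the remaining leading genes have no place on the lists. Cym, which encodes chymosin, the milk-clotting protease, rose from 1.35 and 2.88 CPM to 30.3, 58.97 and 51.4 CPM, by 4.49 ± 1.12 log2 units (edgeR adjusted p = 0.0291). Krt7, a keratin of simple and ductal epithelia, rose from 5.25 and 6.99 CPM to 53.03, 65.5 and 28.6 CPM, by 3.01 ± 0.56 (edgeR adjusted p = 0.00829; fractional counts in 9 samples). Angptl8, a regulator of lipoprotein lipase, rose by 3.07 ± 0.43 (edgeR adjusted p = 0.00181) and the cystatin gene Cst8 by 2.75 ± 0.56 (edgeR adjusted p = 0.0114). Aldh1l2, a mitochondrial folate enzyme, fell from 8.62 and 20.2 CPM to 1.42, 0.315 and 0.595 CPM, a log2 fold change of −4.22 ± 0.62 (edgeR adjusted p = 0.00226), and the transcription factor gene Zbtb16 fell by 4.37 ± 0.79 (edgeR adjusted p = 0.00561). Mug1 fell by 4.25 ± 1.28 (edgeR adjusted p = 0.0498), from 2.02 and 18.9 CPM in controls 1 and 2 to 0.946, 0.315 and 0.397 CPM. The olfactory receptor gene Olfr1260 fell by 5.32 ± 0.71 (edgeR adjusted p = 0.00167) and Cnbd2 fell by 4.77 ± 0.34 (edgeR adjusted p = 0.000467), with fractional counts in 10 and 11 samples. Angptl8, Aldh1l2, Olfr1260 and Cnbd2 passed with any 1 sample left out. Krt7 and Cst8 did not pass against either control alone, Zbtb16 not without control 2, Cym only without GIF-DTR 1, and Mug1 only without control 1.

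Of 28 tested cytosolic ribosomal protein genes, 15 rose, 0 fell and 13 did not pass (9.91% of all genes rose), with a median of 0.61. Rpl10a rose from 116 and 98.9 CPM to 453, 388 and 465 CPM, by 2.02 ± 0.20 log2 units (edgeR adjusted p = 0.000535; fractional counts in 11 samples). Rpl15 rose by 1.30 ± 0.18 (edgeR adjusted p = 0.00175), Rps14 by 1.17 ± 0.26 (edgeR adjusted p = 0.0126), Rplp1 by 0.98 ± 0.22 (edgeR adjusted p = 0.0134) and Rps16 by 0.66 ± 0.13 (edgeR adjusted p = 0.00704). With the length and GC trend removed 10 rose, of the 4 members with no fractional counts 1 rose, without GIF-DTR 3 6 rose, and without control 2 only 2 rose. With the covariate for Y-linked expression 2 rose, with a median of 0.79. The ribosomal pseudogene Rps6-ps4 had 769 and 955 counts in the controls and 0 in every other sample. mt-Atp8, a short mitochondrial gene, had 1475 and 1175 CPM in the controls and 134, 145 and 149 CPM in GIF-DTR, a log2 fold change of −3.22 ± 0.29 (edgeR adjusted p = 0.000467). Mitochondrial transcripts as a whole took 9.39% and 8.73% of counts in controls 1 and 2 and 10.8%, 6.95% and 8.27% in the GIF-DTR samples. Whether the levels of these genes or the way their reads were counted differ between controls and lines was not tested.

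GIF-DTR was then set against ATP4B-DTR, the line for parietal cell removal. The controls did not enter this difference, but they shared its filter, scaling and estimate of the spread, and with only these 6 samples fitted 64 genes passed. With all samples fitted 73 of 14901 genes passed the edgeR test (0.49%), 60 higher and 13 lower in GIF-DTR. Of the 73, 37 were also called against control, where 16.7% of all genes were called. Both comparisons use the same 3 GIF-DTR samples, so some overlap is built in. The leading differences were of genes that were low in ATP4B-DTR, among them members of the acid secretion list. Slc26a7 stood at 31.4, 22.9 and 17.9 CPM in GIF-DTR 1 to 3, against 0.233, 0.395 and 0.911 CPM in ATP4B-DTR 1 to 3, a difference of 5.51 ± 0.54 log2 units (edgeR adjusted p = 0.00249). Hamp2, a hepcidin gene, stood at 77.5, 41.2 and 44.7 CPM and 2.05, 1.80 and 1.57 CPM, a difference of 4.91 ± 0.36 (edgeR adjusted p = 0.000252), while the controls were at 114 and 79.2 CPM. Kcne1, a potassium channel subunit, stood at 23.5, 13.1 and 13.9 CPM and 0.978, 1.23 and 0.373 CPM (4.29 ± 0.46, edgeR adjusted p = 0.00249) and was at 20.8 and 14.7 CPM in the controls. B4galnt2, a glycosyltransferase of the gut surface, stood at 8.56, 7.59 and 8.18 CPM and 0.466, 0.263 and 0.414 CPM (4.39 ± 0.29, edgeR adjusted p = 3.74e-05), and Apoa1, the apolipoprotein of high-density lipoprotein, at 1901, 793 and 993 CPM and 71.7, 96.7 and 77.01 CPM (3.91 ± 0.33, edgeR adjusted p = 0.000446). These 5 genes were chosen by a rule that requires no overlap between the samples of the lines. Against control, B4galnt2 fell by 1.61 ± 0.25 log2 units in GIF-DTR (edgeR adjusted p = 0.00262).

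Of the pump genes, Atp4b differed between the lines, with GIF-DTR higher by 2.22 ± 0.35 log2 units (edgeR adjusted p = 0.0245), whereas Atp4a, higher by 1.00 ± 0.29, did not pass (edgeR adjusted p = 0.216). Kit was higher by 1.20 ± 0.21 (edgeR adjusted p = 0.0361), at 33.5, 22.4 and 26.5 CPM in GIF-DTR against 14.9, 9.0004 and 12.01 CPM in ATP4B-DTR. Of the chief cell list 1 gene passed, Tmed6, with a log2 difference of −1.92 ± 0.35 (edgeR adjusted p = 0.0477). Gif (−2.12 ± 0.66, edgeR adjusted p = 0.292), Pgc (−1.57 ± 0.77, edgeR adjusted p = 0.560) and Chia1 (−3.79 ± 0.74, edgeR adjusted p = 0.0743) were lower in value and did not pass. In ATP4B-DTR 1 to 3 Gif stood at 825, 332 and 755 CPM. The olfactory receptor gene Olfr1348 was at 0, 0.157 and 0.159 CPM in GIF-DTR 1 to 3 (0, 4 and 4 counts) and at 23.5, 7.24 and 7.75 CPM in ATP4B-DTR 1 to 3, and was lower in GIF-DTR (edgeR adjusted p = 0.00508). Also lower in GIF-DTR were Slc7a11 (−2.46 ± 0.36, edgeR adjusted p = 0.0193), the phospholipase C gene Plcd3 (−1.76 ± 0.30, edgeR adjusted p = 0.0361), the adhesion molecule gene Ceacam1 (−1.62 ± 0.28, edgeR adjusted p = 0.0361, fractional counts in 11 samples) and Dclk1 (−0.91 ± 0.17, edgeR adjusted p = 0.0379). Of the 35 replication and 34 mitosis genes, 0 passed between the lines, where 0.49% of all genes passed, and the medians were 0.03 and −0.13. The 10 largest rises against control had an edgeR adjusted p of 0.183 to 0.992 between the lines. Mean levels in GIF-DTR and ATP4B-DTR were 13.9 and 6.77 CPM for Cldn2, 24.9 and 21.9 for Kcne3 and 14.7 and 11.6 for Cftr. They were 309 and 596 CPM for Dmbt1 and 46.9 and 4.07 CPM for Cym. ATP4B-DTR held 1 sample with Y-linked expression and GIF-DTR held 0, and with that index as a covariate 23 genes passed. Leaving out 1 sample gave between 17 and 140 calls, the lowest without ATP4B-DTR 1 or 2 and the highest without ATP4B-DTR 3.

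**Figure D5:**
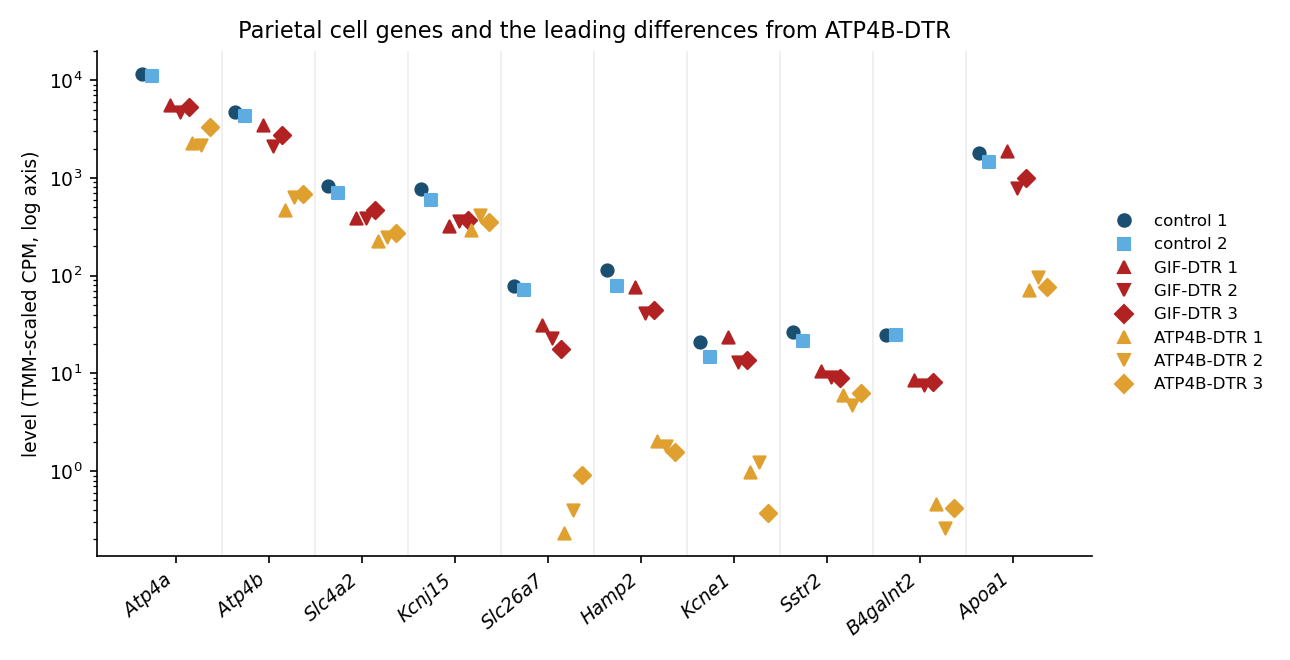
TMM-scaled CPM (log axis) of parietal cell genes and of leading differences between the lines, in each control, GIF-DTR and ATP4B-DTR sample; each point is 1 sample. Slc26a7, Hamp2, Kcne1 and B4galnt2 span 7.59 to 77.5 CPM in GIF-DTR and lie near or below 2 CPM in the ATP4B-DTR samples, and the Atp4a and Atp4b points of GIF-DTR lie below both controls.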

How the data were processed

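The data were bulk RNA sequencing of mouse corpus mucosa; RNA was purified on columns and the libraries were TruSeq stranded mRNA, per the labels' protocols. The authors deposited 1 table of expected counts per gene, read as such because 30.7% of its nonzero values are not whole. The genome build is mm10, per the submitters' processing notes; the aligner, the counting tool and the annotation are not given in the sources used here. A table of identifiers and names gave symbols for 34582 of 34866 genes, and GENCODE M21 held 93.6% of the versioned identifiers and gave positions and lengths.

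The design had been written for whole counts, so the expected counts were rounded to whole numbers before any model. Samples were grouped by the genotype label. The 4 groups set the filterByExpr filter, samples were scaled by TMM, and genes were tested with edgeR 4.0.16 (R 4.3.3) by a robust quasi-likelihood fit to all 11 samples with 1 coefficient per genotype, so that the controls shared the spread of every group (common biological coefficient of variation 26.5%). P-values were adjusted by Benjamini-Hochberg over the 14901 genes tested, and genes under 0.05 are called. Standard errors are the log2 fold change, without its sign, over the root of F. Depths of 20.9 to 27.9 M counts put 3 counts at a mean of 0.151 CPM in control and 0.126 CPM in GIF-DTR; intervals cover counting error only, since PCR copies are not independent molecules. On simulated counts for the comparison with control, the test recovered 82.5% of 200 genes changed 4-fold among 14901, and 3.51% of its calls were false. Apart from those 200 genes the simulated samples shared a common profile. They held no library, length or Y-linked difference, so these rates do not carry over to the calls reported here.

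The members and the 37 gene lists (661 genes, 587 tested) were chosen with earlier results of these data known. Named genes were Gif, Pgc and Chia1, the first 2 genes of each list, up to 5 called members with the smallest p, the 10 largest rises and falls among called genes with a mean of at least 8 CPM in the higher group, no overlap and a symbol other than a gene model number or pseudogene, the 5 highest and lowest by the same rule against ATP4B-DTR, and list members whose controls differ at least 4-fold (Col1a1, Acta2, Igha, Igkc, Jchain). Cela1, Ptf1a, Pou2f3, Mcpt1, Mcpt2, Pttg1, Lgals2, Gm28438 and Rps6-ps4 were chosen after their values were seen. Some genes that the rule names are not reported here.

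Alternatives were DESeq2 size factors, the DESeq2 1.42.0 Wald test, scaling without the 50 most abundant genes, a minimum of 10 counts in every sample, no filter on low counts, only the 2 groups compared, no robust moderation, the index of Y-linked expression (Ddx3y and Eif2s3y with at least 100 counts together) as covariate, and each sample left out in turn. Removing the trend with length and GC content in each sample, and keeping only genes with no fractional counts, were chosen after seeing the data, as was the covariate in the test of the difference between the GIF-DTR changes with and without ATP4B-DTR.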

Additional observations from a re-analysis of the deposited data

Results flagged for a closer look

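For 18 named genes the change linked to GIF-DTR differed with the presence of ATP4B-DTR, by a test of the difference itself. The value is the log2 fold change of GIF/ATP4B-DTR over ATP4B-DTR, less that of GIF-DTR over control, and 100 of 14901 genes passed the edgeR test of it. Many of the 18 were named for their change between GIF-DTR and control, which also enters this value. Both controls and the 3 GIF/ATP4B-DTR samples had 1408 to 3161 counts of the Y-linked genes Ddx3y and Eif2s3y together, the 3 GIF-DTR samples 0 to 4, and 1 of the 3 ATP4B-DTR samples 2513 against 0 and 2 in the others. The index of Y-linked expression was then added as a covariate, a setting chosen after seeing the data. With it, 6 of all genes and 0 of the 18 passed this edgeR test (adjusted p of 0.106 to 0.496). The 18 differences kept their sign, but these genes had been chosen by the same test without the covariate. The part of Y-linked expression in the differences was not tested further. Among genes that rose in GIF-DTR, the difference was −4.67 for Cldn2 and −4.53 for Kcne3 (edgeR adjusted p = 0.0478 for both), −4.12 for Cftr (edgeR adjusted p = 0.0214), −4.03 for Cst8 (0.0478), −3.44 for Dmbt1 (0.0262), −3.20 for Ifi27l2a (0.0137) and −2.90 for Angptl8 (0.0420). Dmbt1 differed by 2.81 between GIF-DTR and control and by −0.63 between GIF/ATP4B-DTR and ATP4B-DTR, and Ifi27l2a by 2.28 and −0.92. Mean levels in ATP4B-DTR, where the second change starts, were 6.77 CPM for Cldn2, 21.9 for Kcne3, 11.6 for Cftr and 596 for Dmbt1. In control they were 0.123, 0.372, 0.318 and 43.98 CPM. Of the replication list 15 of 35 genes passed this test (42.9%) and of the mitosis list 1 of 34 (2.94%), where 0.671% of all genes passed. The named ones had values of −1.96 for Gins2 (0.0205), −1.79 for Uhrf1 and −1.62 for Spc24 (0.0390 for both), −1.77 for Mcm5 (0.0375), −1.71 for Chaf1a (0.0369) and −1.14 for Mcm4 (0.0478). Mcm5 differed by 2.09 in the first pair and 0.32 in the second. Of the genes that fell, Herpud1 had a difference of 1.57 (0.0367) and Olfr1260 of 5.99 (0.0371).

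In 3 further genes of this kind GIF-DTR again differed from control: Rpl10a (−1.999), mt-Atp8 (3.16) and Cnbd2 (3.88), each with an edgeR adjusted p of 0.0137. Counts of Rpl10a and Cnbd2 were fractional in 11 samples and those of mt-Atp8 in 4. The test uses both controls, which also hold counts of 9 pseudogenes that have at most 3 counts in any other sample, and the part of that library difference in these values was not tested.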

How the results depend on the processing

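The counts of calls kept within 1.5 times under the scalings, filters, moderation and group choices tried, between 2231 with no filter on low counts and 3352 with the DESeq2 Wald test. With the trend in length and GC content removed 1789 genes passed. Under the covariate for Y-linked expression 438 genes passed, 325 higher and 113 lower, and 419 of them changed at least 2-fold; for GIF-DTR against ATP4B-DTR 23 passed. Among genes with no fractional counts 994 passed, 594 higher and 400.0 lower, and 429 changed at least 2-fold, where fewer genes were tested. Leaving out 1 sample gave between 872 and 2006 calls, 421 to 1243 higher, 330.0 to 763 lower and 556 to 966 at least 2-fold, the fewest in all without control 2 and without control 1 for the lower genes. Against ATP4B-DTR it gave 17 to 140.0 calls, and the DESeq2 Wald test gave 383. The cause of these shifts was not tested.

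A log2 fold change turned sign only for named genes that were not called against both controls. With the covariate the value was 0.22 for Kcne1, 0.19 for Acta2, 0.18 for Pttg1, −0.18 for Cela1, −0.39 for Tff2, −0.48 for Stat2 and −0.76 for Lgals2. Ptf1a and Pou2f3, with 0.019 and 0.0052 as reported, had −0.0015 and −0.012 with DESeq2 size factors, −0.00058 and −0.011 with the DESeq2 Wald test and −0.23 and −0.093 with the length and GC trend removed. Pou2f3 also had −0.0035 without the 50 most abundant genes and −0.0017 with only the 2 groups compared. Leaving out 1 sample gave −0.40 to 0.20 for Kcne1 (above 0 without control 1, GIF-DTR 2 or GIF-DTR 3), −0.089 to 1.30 for Stat2 (below 0 without control 2), −0.19 to 0.072 for Hspa5 and −0.12 to 3.35 for Csf1r (both turned without control 1; Csf1r passed without control 2), −0.018 to 0.24 for Ceacam1 (turned without GIF-DTR 2), −0.046 to 3.51 for Col1a1 (below 0 without control 1), −1.15 to 1.85 for Acta2 (above 0 without control 2, GIF-DTR 2 or GIF-DTR 3), −0.39 to 0.28 for Ptf1a (below 0 without control 1 or GIF-DTR 2), −0.040 to 0.040 for Pou2f3 (below 0 without control 1 or GIF-DTR 3), and −0.0021 to 0.57 for Lgals2 (below 0 without control 2). No paired analysis was possible because only the controls carry replicate numbers in their titles and the other numbers are accession order. Depth limits genes near 3 counts, and the 2 controls limit every comparison with control.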

Other observations

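Of 14901 genes tested, 1044 differed at least 4-fold between control 1 and control 2. Of these, 10 were called between GIF-DTR and control, where 16.7% of all genes were. A wide gap between the controls raises the estimated spread, so few calls follow from how such genes were chosen. The plasma cell genes Igkc, an immunoglobulin light chain, and Jchain, which joins secreted immunoglobulins, were among the genes of this kind: Igkc stood at 12.4 and 165 CPM in controls 1 and 2 and 6.77, 0.983 and 1.51 CPM in GIF-DTR 1 to 3, and Jchain at 3.86 and 52.6 CPM and 3.36, 0.393 and 0.952 CPM. In both genes GIF-DTR 1 was above GIF-DTR 2 and 3, and neither passed (edgeR adjusted p = 0.0575 and 0.0782). Leaving out 1 sample gave log2 fold changes of −6.15 to −2.02 for Igkc and −5.38 to −1.31 for Jchain. With no robust moderation 2 of 5 tested B cell and plasma cell genes passed as lower, where 999 of 14901 genes did.

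Of 17 listed T cell and natural killer cell genes 3 could be tested and 0 passed. Among 7 blood and fat genes 0 passed, and among 16 genes of hypoxia, oxidative stress and glutathione 1 rose, Gpx2.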
